A study of Mus musculus with 12 samples.

Results

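The genes described here are 34 genes of glucose uptake, glycolysis, lactate and pyruvate handling, oxygen sensing and the transcriptional response to hypoxia. They were taken by gene name from a table of 54146 mouse genes, and all 34 were found. By role they were 3 genes of glucose uptake and hexokinase, 8 of the upper steps of glycolysis, 6 of the lower steps, 5 of lactate and pyruvate fate, 3 of oxygen sensing and 9 targets of the hypoxia response. The 12 RNA libraries came from a mouse mammary tumor line that is used to study dormancy, D2A1, whose cells were marked with a GFP-tagged histone, stained with the membrane dye CellVue Claret (CVC), injected through the tail vein and sorted from the lungs of female mice. The 4 groups held 3 libraries each. Dormant WT and dormant KO were GFP-positive cells that had kept the dye, and growing WT and growing KO were GFP-positive cells that had lost it. WT hosts are labeled WT (floxed controls in the study's description of its mice), and KO hosts are labeled Tgfbr2 KO and carried a deletion of Tgfbr2, a receptor for TGF-β, driven by LysM-Cre and therefore within host myeloid cells, leaving the tumor cells intact. All WT libraries carried library batch 1 in their names and all KO libraries library batch 2, so host and batch cannot be told apart in these 12 libraries, whereas comparisons of dormant with growing cells lay within a batch. The table also holds columns named for WT and batch 2, which matched no labeled sample and were not analysed here.

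Glycolysis splits glucose into pyruvate through a chain of cytosolic enzymes, of which hexokinase, phosphofructokinase and pyruvate kinase catalyze the irreversible steps. Lactate dehydrogenase then converts pyruvate and lactate into each other, and monocarboxylate transporters carry lactate across the membrane. Hypoxia-inducible factor 1 (HIF-1), a dimer of HIF-1α and ARNT, binds a short core element, ACGTG or GCGTG, near many of these genes when oxygen is low. When oxygen is present, the prolyl hydroxylases encoded by the Egln genes mark HIF-1α for degradation, so the level of Hif1a RNA is not a measure of HIF-1 activity.

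The proximal promoters of genes on which the results turn are shown because the hypoxia core is the sequence feature that many members share. They are taken from RefSeq (GRCm38.p6), 5′ to 3′ on the strand of the gene, with the letters ACGTG or their reverse complement CACGT in capitals. Pgk1 is at chrX:106186911-106187010 on the plus strand and Ldha at chr7:46845656-46845777 on the plus strand. Hif1a is at chr12:73907716-73907815, plus strand. The stretches of Eno1, chr4:150236608-150236707 on the plus strand, and Ldhb, chr6:142507958-142508057 on the minus strand, have no such letters and end at the base before the start site. For Eno1 this is the first of 3 annotated start sites.
Pgk1: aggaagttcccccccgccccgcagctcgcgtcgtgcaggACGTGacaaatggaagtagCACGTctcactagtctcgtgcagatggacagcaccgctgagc
Ldha: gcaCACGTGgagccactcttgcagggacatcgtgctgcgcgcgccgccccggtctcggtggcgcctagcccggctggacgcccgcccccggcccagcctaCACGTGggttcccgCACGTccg
Hif1a: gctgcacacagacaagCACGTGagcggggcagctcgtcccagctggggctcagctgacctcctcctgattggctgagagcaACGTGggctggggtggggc
Eno1: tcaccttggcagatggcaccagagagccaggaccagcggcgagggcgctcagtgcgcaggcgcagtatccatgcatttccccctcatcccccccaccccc
Ldhb: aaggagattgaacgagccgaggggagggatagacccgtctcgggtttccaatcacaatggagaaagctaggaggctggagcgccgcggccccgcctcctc

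In Pgk1 the core began 150 and 131 bases before the start site. In Ldha it was read 5 times, at 145, 144, 48, 47 and 34 bases before the first of its 2 annotated start sites. Neighboring positions there are the palindrome CACGTG read on both strands. The window of the second Ldha start site held no ACGTG on either strand. Of the 33 members with a promoter window (250 bases before to 50 after a start site), 24 held ACGTG on either strand in at least 1 window (72.7%), against 21.8% of the 27025 genes in the table of promoters and 29.5% of the 8627 tested genes with a window. GCGTG on either strand was in 23 members (69.7%), against 35.2% of all genes and 56.3% of the tested genes. ACGTG outside the palindrome was also in 23 members, against 15.3% of all genes and 20.6% of the tested genes. Among members without ACGTG were Gpi1, Tpi1, Eno1, Ldhb and Pdk1. In Pkm it lay 75 bases before and 9 after the second of its 2 annotated start sites. These counts describe letters in a window of 300 bases and were not tested. The list was assembled partly from known HIF-1 targets, so the share is no independent finding.

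Levels are given as TPM, relative transcript abundances scaled to a fixed total in each library and corrected for gene length, so that genes of a library can be set against each other. The table holds no depth, and precision is given as the spread between 3 libraries, which the study describes as biological triplicates from separate mice. The number of genes above 0 was 11325 to 13242 in dormant WT cells and 13406 to 15315 in the other groups. Of the 34 members, 29 reached 1 TPM in at least 3 libraries and were tested with limma among 13002 genes on log2(TPM + 1). Gene positions are those of GENCODE M21 on GRCm38 and span the whole gene. Calls required an adjusted p of 0.05 or less together with a difference of 1 or more on that scale. Whether the values of groups overlap is given as a description. It was not tested, and its share over all genes was not computed.

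Markers of many other cell types were higher in the dormant KO libraries and are given here because they accompany every result on that group. The summed TPM of 7 alveolar type 2 markers was 40071 to 42410 in dormant KO cells, 42.1 to 141 in dormant WT cells, 52.5 to 95.1 in growing WT cells and 456 to 464 in growing KO cells. For 5 erythroid genes the sums were 50831 to 56264, 8988 to 13031, 6196 to 6851 and 6881 to 7791 in the same order. Alveolar type 1 markers summed to 973 to 1139 TPM in dormant KO cells and at most 79.97 elsewhere, fibroblast markers to 1265 to 1572 and at most 342.89, endothelial markers to 253 to 407 and at most 25.69, and neutrophil markers to 4017 to 4353 and at most 914.66. Against dormant WT, limma called higher in dormant KO all 7 alveolar type 2 markers, 4 of 5 alveolar type 1, 3 of 5 endothelial, 3 of 5 fibroblast, 4 of 4 mesothelial, 3 of 4 B cell and 4 of 5 erythroid markers, as well as 3 of 4 tested club and ciliated, 3 of 4 tested T and NK cell and 3 of 3 tested neutrophil markers. Of 4 tested macrophage markers 0 were called, and 0 had an unadjusted p under 0.05, with sums of 107 to 226 TPM in dormant KO and 73.1 to 159 in dormant WT. Against growing cells, however, Mrc1 and Cd68 of that list were called higher in dormant cells of both hosts, and the sums were 3.16 to 10.8 TPM in growing WT and 5.88 to 22.7 in growing KO. Of the markers of mammary carcinoma, Krt8 was at 52.1 to 106 TPM in dormant KO cells and 153 to 381 TPM in the other 9 libraries, Krt18 was at 131 to 519 TPM across all 12, Epcam never passed 5.34 TPM, and Krt14 was at 0 outside dormant KO. Krt7 was at 29.6 to 61.5 TPM in dormant KO and at most 2.18 elsewhere, and Krt19 at 252 to 418 TPM and at most 14.2 elsewhere. Of these markers 5 were tested, and between hosts in dormant cells limma called 3 higher in dormant KO (Krt7, Krt19 and Epcam) and 1 lower (Krt8). The part of these other transcripts in the results was not tested. In bulk samples, fewer cells of a type and less RNA per cell cannot be told apart.

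Glucose uptake and phosphorylation gave no called difference in any comparison. Over all genes, the shares called were 0.261% to 12.9% per direction and comparison, so 0 of 3 is no result about these genes. An unadjusted p under 0.05 was found only for Hk1, between hosts in dormant cells and in the interaction. That cutoff was passed there by 4591 and 3031 of the 13002 genes tested. Quantile normalization called Hk1 in 3 comparisons, lower in dormant KO than in dormant WT (-2.04, limma adjusted p 0.00771), higher in dormant WT than in growing WT (1.88, adjusted p 0.0316) and lower in the interaction (-2.51, adjusted p 0.0371), and it was also called between hosts without dormant WT library 2 (-1.81, adjusted p 0.0497). Slc2a1, which encodes the glucose transporter GLUT1, was at 29.4, 0.95 and 13.3 TPM in dormant WT cells, 5.66, 2.71 and 11.99 TPM in dormant KO cells, 8.98, 24.1 and 20.2 TPM in growing WT cells and 12.01, 16.8 and 24.0 TPM in growing KO cells. The dormant WT libraries spanned the range of all the others. Hk2, the inducible hexokinase, was at 19.0, 5.03 and 24.9 TPM in dormant WT cells, 6.41, 14.8 and 3.52 in dormant KO cells, 10.9, 29.9 and 18.2 in growing WT cells and 10.8, 13.5 and 15.3 in growing KO cells. Hk1, the constitutive form, ranged from 0.63 to 13.1 TPM and was lower than Hk2 in every library, with Hk2 making up 59.1% to 96.1% of their sum. The difference of dormant KO from dormant WT was -0.47 for Slc2a1 (95% interval -2.46 to 1.53), -1.40 for Hk1 (-2.73 to -0.07) and -0.85 for Hk2 (-2.33 to 0.62), with limma adjusted p of 0.768, 0.124 and 0.413.

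In the comparison of dormant cells between hosts, 6 of the 29 tested members were called. Gpi1 was higher in dormant KO, and Pgk1, Eno1, Pkm, Ldha and Hif1a were lower. Over all genes tested, 12.9% were called higher and 9.39% lower, so 1 of 29 higher and 5 of 29 lower members stand against those shares. By adjusted p alone, 2 members were higher and 6 lower, with a background of 24.0% in either direction. The median difference of the tested members was -0.54, against 0.17 for all genes tested. Under median-ratio scaling, which raises every dormant KO value relative to the other groups, the median of all genes moved to 0.50 and that of the members to -0.06, and 2 members were called higher (Gpi1 and Ldhb) and 3 lower (Eno1, Pkm and Hif1a).

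Pkm (ENSMUSG00000032294.17, chr9:59656368-59679375, plus strand), which encodes the muscle-type pyruvate kinases that form pyruvate at the end of the pathway, had the largest difference of the called members. It was at 915, 893 and 711 TPM in dormant WT cells and at 53.7, 108 and 65.2 TPM in dormant KO cells. Growing WT had 544, 527 and 548 TPM and growing KO 841, 907 and 898 TPM. The 3 dormant KO libraries lay apart from the other 9, and the mean of dormant WT (840 ± 112, SD, n = 3) was 11.1 times that of dormant KO (75.6 ± 28.6). The log2 difference was -3.51 (SE 0.222, limma adjusted p 1.31e-06), and it was between -3.80 and -3.30 with any library of the 2 groups left out. Both scalings tried kept the call, at -2.99 under median-ratio scaling and -3.39 under quantile normalization. RNA of Pkm is spliced into M1 and M2 forms, which gene-level values do not separate.

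Eno1 (ENSMUSG00000063524.13, chr4:150236721-150248879, plus strand), the enolase of most tissues, was at 415, 299 and 314 TPM in dormant WT cells, 66.5, 152 and 55.1 in dormant KO cells, 632, 577 and 704 in growing WT cells and 871, 914 and 937 in growing KO cells. All dormant KO values were under all others, and the log2 difference of dormant KO from dormant WT was -2.03 (SE 0.308, limma adjusted p 0.000567). Eno1 shares reads with near-identical copies, genes with at least 95% identity over 200 bases or more. The TPM of these copies summed to 245 to 310 in dormant WT cells and 43.0 to 142 in dormant KO cells. In growing cells the copies summed to 512 to 584 TPM (WT) and 942 to 1027 TPM (KO). Summed with its copies, an alternative chosen after the data were seen, Eno1 differed by -1.96 (limma adjusted p 0.000667). Eno2, the neuronal enolase, did not exceed 8.42 TPM, and Eno1 made up 97.4% to 100% of the pair in every library.

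Pgk1 (ENSMUSG00000062070.12, chrX:106187100-106203699, plus strand), which encodes the phosphoglycerate kinase of the first ATP-forming step, was at 290, 252 and 260 TPM in dormant WT cells and 162, 72.5 and 91.1 in dormant KO cells, a log2 difference of -1.37 (SE 0.252, limma adjusted p 0.00197). Growing WT libraries had 360, 337 and 407 TPM and growing KO libraries 586, 633 and 622. The groups were ordered dormant KO, dormant WT, growing WT and growing KO with no overlap between neighbors, although neither dormant WT against growing WT (adjusted p 0.298) nor growing KO against growing WT (adjusted p 0.364) was called by limma. Under median-ratio scaling the dormant difference between hosts was -0.86 (adjusted p 0.0416), short of the minimum of 1. The other lower steps were not called. Gapdh, the glyceraldehyde phosphate dehydrogenase often used as a reference gene, was at 532 ± 36.3 TPM (SD, n = 3) in dormant KO and 582 ± 94.95 in dormant WT cells, with a difference of -0.12 (95% interval -0.40 to 0.16). Pgam1, phosphoglycerate mutase, was at 131 ± 28.0 and 182 ± 58.7 TPM, with a difference of -0.45 (95% interval -0.99 to 0.09).

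**Figure D1:**
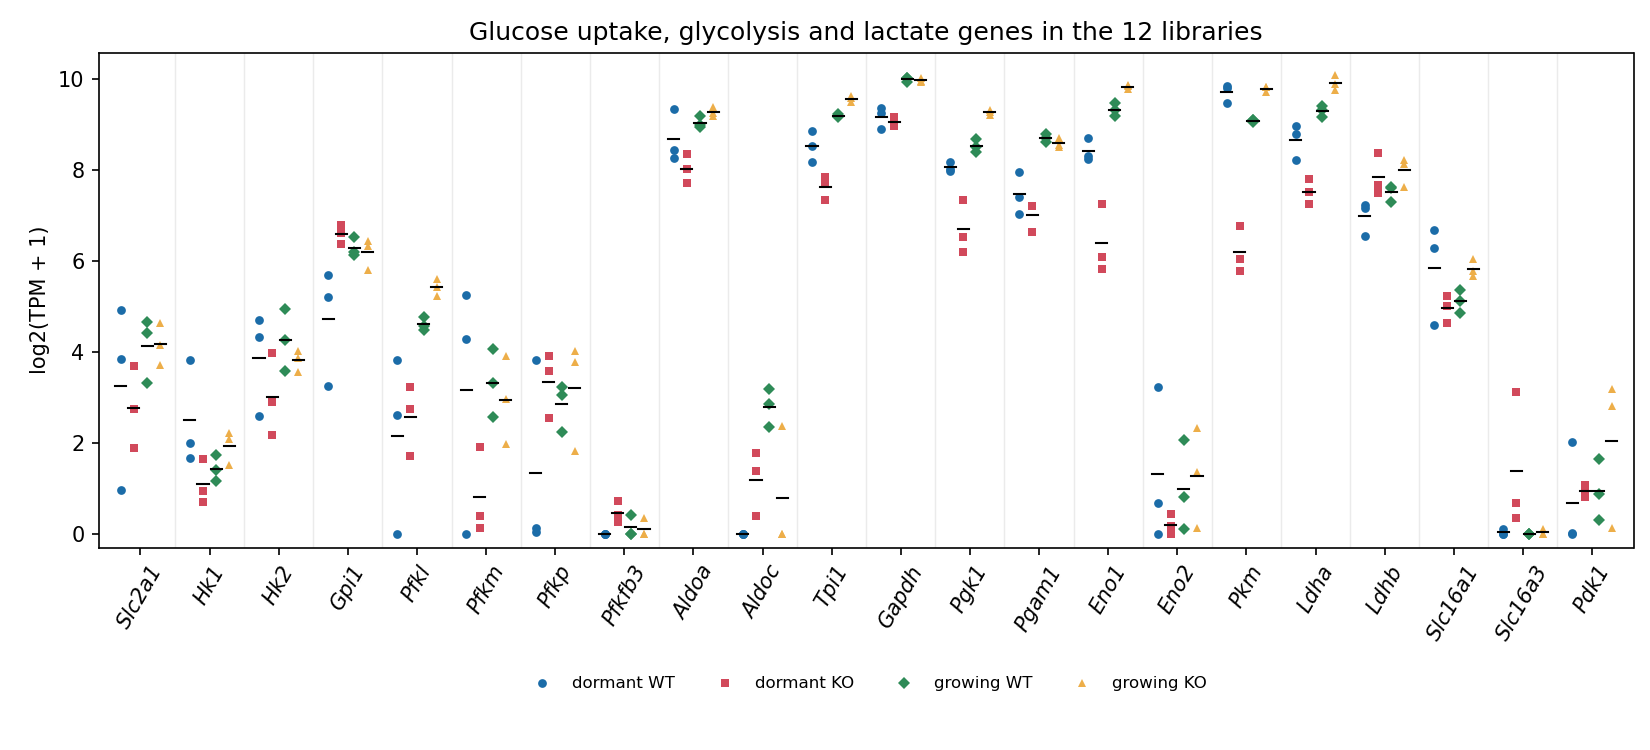
Level of each gene of glucose uptake, glycolysis and lactate handling as log2(TPM + 1) in the 12 libraries. Each point is a library and each black line the mean of a group of 3, and the red squares of dormant KO lie under all other points for Tpi1, Pgk1, Eno1, Pkm and Ldha but not for Gapdh, Gpi1 or Ldhb. This separation was not tested, and its share over all genes was not computed.

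In the upper steps, which lead to the triose phosphates, directions were mixed. Gpi1 (ENSMUSG00000036427.5, chr7:34201330-34230336, minus strand), the isomerase that makes fructose 6-phosphate, was at 97.2, 110 and 81.9 TPM in dormant KO cells and 50.6, 36.1 and 8.46 TPM in dormant WT cells, a log2 difference of 1.88 (SE 0.533, limma adjusted p 0.0234). Of its dormant KO values 1 lay among those of the growing cells and 2 lay above them, with 69.2 to 91.6 TPM in growing WT cells and 54.5 to 85.9 in growing KO cells. The call was lost without dormant KO library 1 (1.87, limma adjusted p 0.0662) or 2 (1.78, adjusted p 0.0728), and it was kept at a difference of 1.14 without dormant WT library 3. It was also lost, at differences of 1.88 to 1.91, with no filter, in the fit of the dormant groups alone and with array weights (adjusted p 0.0508, 0.148 and 0.0502). Tpi1 (ENSMUSG00000023456.15, chr6:124810586-124814296, minus strand), triose phosphate isomerase, was at 463, 370 and 286 TPM in dormant WT cells and 211, 160 and 228 in dormant KO cells, and passed the adjusted p (0.00505 by limma) with a difference of -0.89, under the minimum of 1. Without dormant WT library 3 it was called (-1.06, adjusted p 0.00124), while under median-ratio scaling it was at -0.37 (adjusted p 0.222) and in the fit of the dormant groups alone the adjusted p was 0.0809. Aldoa, the main aldolase, was at 649, 343 and 305 TPM in dormant WT cells and 210, 324 and 257 in dormant KO cells (difference -0.65, limma adjusted p 0.0955), and it made up 98.6% to 100% of the aldolase TPM in every library.

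The 3 phosphofructokinase genes, which encode the liver, muscle and platelet subunits of the main control point of the pathway, were low and uneven in dormant WT. Pfkl was at 13.2, 5.13 and 0 TPM there, Pfkm at 18.3, 36.9 and 0, and Pfkp at 13.2, 0.10 and 0.03. In the growing cells Pfkl was the largest of the 3 in every library, at 48.8% to 67.3% of their sum in growing WT and 65.5% to 75.4% in growing KO cells, and it took 14.3% to 53.7% in dormant KO cells. No phosphofructokinase gene was called between hosts in dormant cells, where the intervals reached from -1.39 to 2.21 for Pfkl, -4.94 to 0.22 for Pfkm and -0.18 to 4.19 for Pfkp. Pfkm was called lower in dormant KO without dormant WT library 3 (-3.94, limma adjusted p 0.00403), and Pfkp higher without dormant WT library 1 (3.25, adjusted p 0.00759). Pfkfb3, which makes the activator fructose 2,6-bisphosphate, was at 0 in all 3 dormant WT libraries, 0.64, 0.34 and 0.19 TPM in dormant KO cells, 0.34, 0 and 0 in growing WT cells and 0.27, 0 and 0 in growing KO cells. It was not tested, as no library reached 1 TPM.

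Each enzyme was also expressed as a share of the summed TPM of the 13 enzymes from Gpi1 to Pkm, a quantity chosen after the values were seen in which the scaling of a library cancels. The sum itself was 3082 ± 497 TPM (SD, n = 3) in dormant WT, 1516 ± 132 in dormant KO cells, 4211 ± 68.9 in growing WT cells and 5302 ± 103 in growing KO cells. Pkm took 25.0%, 31.4% and 25.9% of it in dormant WT and 3.73%, 6.47% and 4.53% in dormant KO cells, against 12.8% to 12.9% in growing WT cells and 16.2% to 17.0% in growing KO cells. The 4 groups did not overlap for Pkm, with dormant WT highest and dormant KO lowest. Gapdh took 36.3%, 34.3% and 34.9% in dormant KO cells and 16.7% to 25.2% in the other 9 libraries. Gpi1 took 5.70% to 6.75% in dormant KO cells and at most 2.22% elsewhere. Eno1 took 4.62%, 9.12% and 3.83% in dormant KO cells and 10.5% to 17.4% elsewhere. Tpi1, by contrast, took 9.60% to 15.8% in dormant KO cells, within which all of the growing values (13.6% to 15.1%) lay.

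The lactate dehydrogenase subunits differed with opposite signs. Ldha (ENSMUSG00000063229.15, chr7:46841475-46855627, plus strand), whose product favors the forming of lactate, was at 442, 296 and 501 TPM in dormant WT cells and 222, 181 and 152 in dormant KO cells, a log2 difference of -1.14 (SE 0.208, limma adjusted p 0.00197). It was 575, 677 and 636 TPM in growing WT cells and 864, 1079 and 944 in growing KO cells. Ldhb (ENSMUSG00000030246.11, chr6:142490249-142507957, minus strand), the heart-type subunit, was at 150, 92.9 and 143 TPM in dormant WT cells and 203, 331 and 180 in dormant KO cells, so that its groups did not overlap either, and it passed the adjusted p (0.0493 by limma) with a difference of 0.86, under the minimum of 1. Growing WT had 192, 196 and 156 TPM of Ldhb and growing KO 294, 281 and 197. The share of Ldhb in the 2 subunits was 47.8%, 64.6% and 54.1% in dormant KO cells and 25.3%, 23.9% and 22.2% in dormant WT cells. In growing WT it was 25.0%, 22.5% and 19.7%, and in growing KO 25.4%, 20.7% and 17.3%. This share does not change with the scaling of a library, and the 3 dormant KO libraries were apart from the other 9. The Ldha call was lost, short of the minimum of 1, at -0.62 under median-ratio scaling and -0.96 under quantile normalization. It was also lost without dormant WT library 3, at -0.98. The same 2 scalings took Ldhb to 1.38 and 1.08, past the minimum. Ldhb missed the adjusted p with no filter (0.0863), in the fit of the dormant groups alone (0.169), with array weights (0.300) and with the replicate block (0.0649), and without dormant WT library 2 (0.65, limma adjusted p 0.110) or dormant KO library 1 (0.95, 0.0766) or 2 (0.60, 0.183), and it was called without dormant KO library 3 (1.04, 0.0445).

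**Figure D2:**
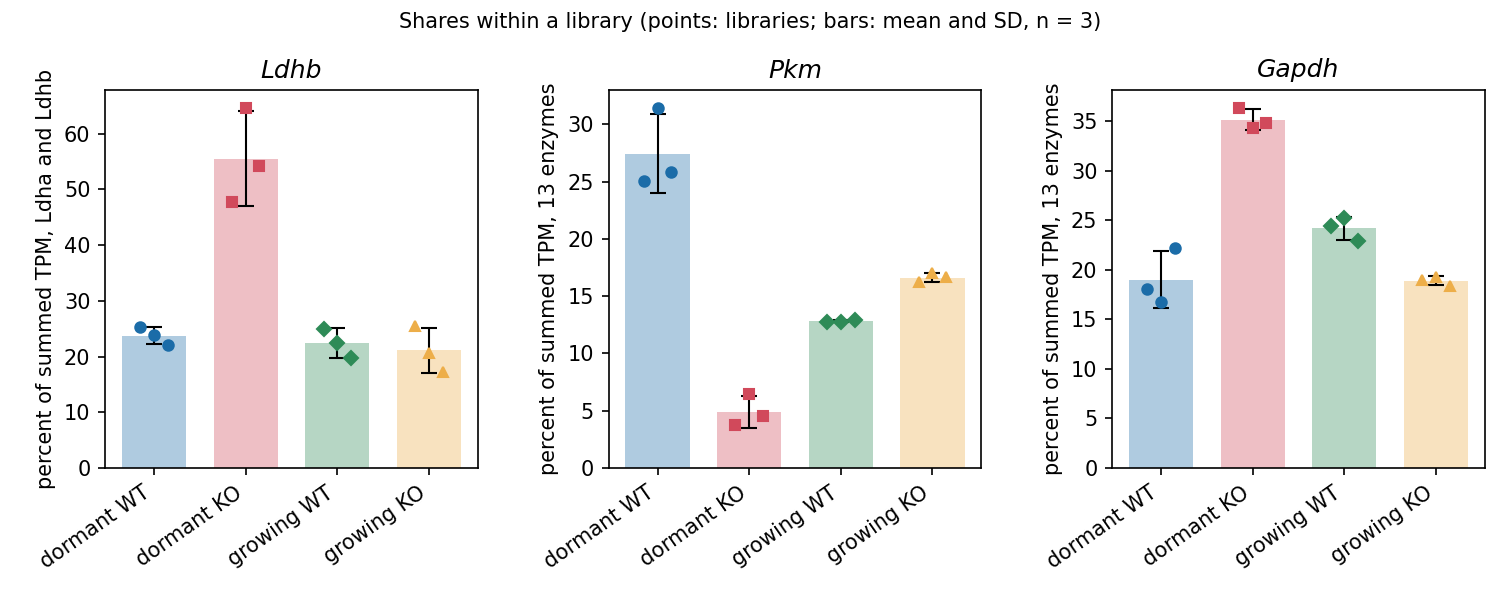
Percent of summed TPM within a library for Ldhb of Ldha plus Ldhb (left), and for Pkm (middle) and Gapdh (right) of 13 glycolytic enzymes, with points for libraries and bars for the mean and SD of 3. Dormant KO is highest for Ldhb at 47.8% to 64.6%, lowest for Pkm at 3.73% to 6.47% and highest for Gapdh at 34.3% to 36.3%.

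Of the lactate transporters, Slc16a1, which encodes MCT1, was the main form, at 102, 23.3 and 76.4 TPM in dormant WT cells and 31.2, 36.3 and 23.9 in dormant KO cells (difference -0.90, limma adjusted p 0.223), and it was called lower without dormant WT library 2 (-1.53, adjusted p 0.00483). It ranged from 28.1 to 39.8 TPM in growing WT cells and 49.5 to 64.4 in growing KO cells. Slc16a3, which encodes the lactate exporter MCT4, was at 0, 0.08 and 0 TPM in dormant WT cells, 0.60, 7.67 and 0.27 in dormant KO cells, 0 in all 3 growing WT libraries, and 0, 0 and 0.07 in growing KO cells, and it was not tested. Pdk1, a kinase that turns off pyruvate dehydrogenase, was at 3.07, 0.01 and 0 TPM in dormant WT cells, 0.88, 0.74 and 1.12 in dormant KO cells, 0.23, 2.12 and 0.83 in growing WT cells and 8.14, 0.10 and 6.04 in growing KO cells. Its groups overlapped in every comparison, and no difference was called.

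Hif1a (ENSMUSG00000021109.13, chr12:73901375-73947530, plus strand), which encodes HIF-1α, was at 69.5, 57.1 and 44.4 TPM in dormant WT cells and 5.80, 25.7 and 6.24 in dormant KO cells, a log2 difference of -2.38 (SE 0.581, limma adjusted p 0.0108). The growing libraries were at 16.5, 24.2 and 21.1 TPM (WT) and 9.91, 23.4 and 25.1 TPM (KO). Here it was dormant WT that lay above all 9 other libraries, while dormant KO overlapped growing KO. Dormant WT against growing WT was 1.42 (95% interval 0.15 to 2.69, limma adjusted p 0.162). The difference between hosts was not called in the fit of the dormant groups alone (-2.38, limma adjusted p 0.0688) or with array weights (-2.55, adjusted p 0.0733). Egln1, the main hydroxylase of HIF-1α, was at 0.34 to 6.78 TPM across all libraries with no called difference. Egln3, a hydroxylase gene that is itself induced by HIF-1, was at 0 in all dormant WT cells and growing WT libraries, 0.04, 0.05 and 0.11 TPM in dormant KO cells and 0, 0 and 0.59 in growing KO cells.

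None of the 7 tested targets of the hypoxia response was called by limma between hosts in dormant cells or in any other comparison. Over all genes, the shares called were 0.261% to 12.9% per direction and comparison, so 0 of 7 is no result about these genes. An unadjusted p under 0.05 was found for Higd1a between hosts in dormant cells, Bnip3 between hosts in growing cells and Vegfa between states in KO hosts. In the same order, 4591, 979 and 4011 of the 13002 genes tested passed that cutoff. Without dormant WT library 2, Ankrd37 was called, as higher in dormant KO when set against dormant WT (3.67, limma adjusted p 0.00492) and lower in dormant WT than in growing WT (-4.34, adjusted p 0.00624), and without dormant WT library 3 P4ha2 was called lower in dormant KO (-2.87, adjusted p 0.0134). Bnip3, a mitophagy receptor induced by hypoxia, was at 72.5, 50.8 and 71.2 TPM in dormant WT cells, 64.0, 57.1 and 61.6 in dormant KO cells, 52.9, 36.0 and 19.0 in growing WT cells and 109, 45.0 and 90.04 in growing KO cells. Dormant KO lay within the range of dormant WT, and their difference was -0.07 (95% interval -1.02 to 0.88). Vegfa, the angiogenic growth factor, was low, at 4.99, 3.10 and 2.13 TPM in dormant WT cells, 10.9, 2.50 and 8.43 in dormant KO cells, 3.23, 2.30 and 1.39 in growing WT cells and 2.77, 2.27 and 0.16 in growing KO cells. Its dormant difference between hosts was 0.79 (95% interval -0.64 to 2.21). Higd1a, a mitochondrial protein of the hypoxia response, was the most abundant target, at 123 to 149 TPM in dormant KO cells and 152 to 393 in dormant WT cells (difference -0.71, limma adjusted p 0.129). Its dormant KO values lay under those of the other 9 libraries.

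The prolyl 4-hydroxylase subunits of collagen, P4ha1 and P4ha2, spread widely in dormant WT, from 4.38 to 51.5 TPM and from 0.09 to 54.9 TPM. In dormant KO they were at 7.18 to 25.3 and 2.49 to 12.01 TPM. Ankrd37 was at 0, 37.7 and 0 TPM in dormant WT cells but at 18.9, 19.7 and 19.1 in growing WT cells, so a single library carried the dormant WT level. Ndrg1 ranged from 0 to 20.9 TPM in dormant WT cells and from 4.63 to 10.1 in dormant KO cells. Adm, which encodes adrenomedullin, was at 0 in 9 libraries and reached 6.86 TPM in dormant KO library 2. Ddit4, an inhibitor of mTORC1 signaling, did not exceed 1.80 TPM, and neither of these was tested.

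**Figure D3:**
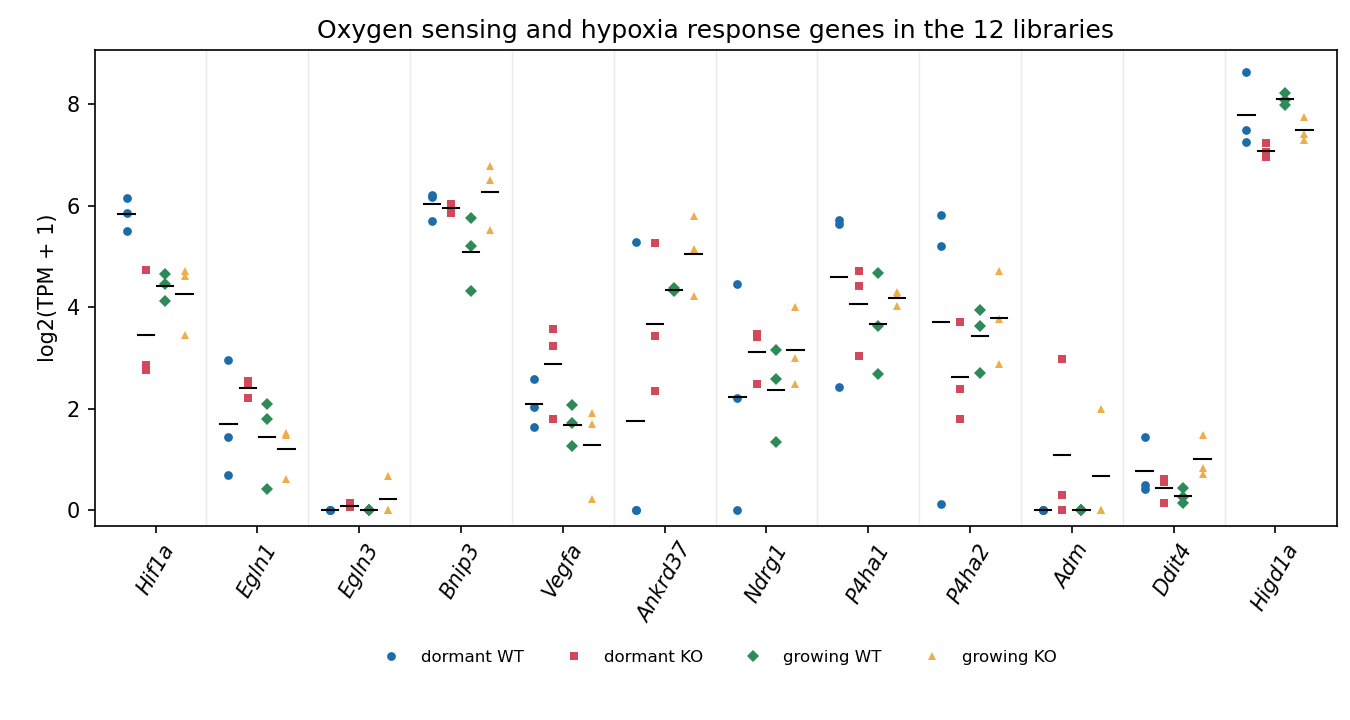
Level of each gene of oxygen sensing and the hypoxia response as log2(TPM + 1) in the 12 libraries, with a point for each library and a black line for each group mean of 3. Hif1a is highest in dormant WT at 44.4 to 69.5 TPM, Higd1a is lowest in dormant KO at 123 to 149 TPM, and the groups of the other 6 tested targets overlap in each comparison.

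In KO hosts, dormant against growing cells gave 8 called members, all lower in dormant cells: Pfkl, Aldoa, Tpi1, Pgk1, Pgam1, Eno1, Pkm and Ldha. In the same comparison all 7 alveolar type 2 and 4 of 5 erythroid markers were called higher in dormant cells. Of the markers of mammary carcinoma, Krt8 and Krt18 were called lower there, and Krt7 and Krt19 higher. The part of these transcripts in the results was not tested. Over all genes tested 9.48% were called lower and 8.31% higher, against 8 and 0 of the 29 members. By adjusted p alone there were 9 members, with Gapdh added, against 19.2% of all genes. The median of the members was -0.91 and that of all genes -0.32. In Pkm, growing KO (882 ± 35.7 TPM, SD, n = 3) was 11.7 times dormant KO, with a log2 difference of -3.59 (SE 0.222, limma adjusted p 2.14e-06). In Eno1 the ratio of means was 9.94 and the log2 difference -3.44 (SE 0.308, adjusted p 2.62e-05). Pgk1 was at -2.57 (adjusted p 4.47e-05), Ldha at -2.38 (2.29e-05) and Tpi1 at -1.93 (4.44e-05), all by limma.

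Tpi1 was at 785, 723 and 761 TPM in growing KO cells and 596, 573 and 582 in growing WT cells, above both dormant groups. Pgam1 was at 374, 417 and 364 TPM in growing KO cells against 98.3, 147 and 147 in dormant KO cells (difference -1.57, limma adjusted p 0.000910). For Aldoa the growing KO values of 609, 583 and 669 TPM all exceeded those of dormant KO (difference -1.25, limma adjusted p 0.00529). Pfkl was at 36.3, 41.9 and 47.8 TPM in growing KO cells against 2.29, 8.31 and 5.69 in dormant KO cells (difference -2.86, limma adjusted p 0.0302), a call lost on leaving out any library of these 2 groups but dormant KO library 2. Gapdh differed by -0.91 (limma adjusted p 0.000432), under the minimum of 1. It was called when summed with its near-identical copies (-1.05, adjusted p 0.000183), whose TPM reached 31.4% of its own, and under median-ratio scaling it was at -0.32 (adjusted p 0.0715). Ldhb did not follow Ldha, at -0.14 (95% interval -0.78 to 0.49). Among the hypoxia targets, Vegfa was 1.59 higher in dormant KO (95% interval 0.17 to 3.02, limma adjusted p 0.117), which was called with array weights (1.79, adjusted p 0.0467), and Bnip3 differed by -0.32 (-1.27 to 0.63). Median-ratio scaling left 5 of the 8 calls, without Pfkl, Aldoa and Pgam1. The Aldoa call was also lost under quantile normalization, and that of Pfkl with a pseudocount of 0.1 and with no filter.

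In WT hosts, dormant against growing cells gave 2 called members, Aldoc and Pgam1, both lower in dormant cells. Called higher in dormant WT were the macrophage markers Mrc1 and Cd68 and also S100a8 and S100a9 among the neutrophil markers, whose sum was 326 to 915 TPM in dormant WT against 52.0 to 78.0 in growing WT, while Rtkn2, Dcn and Cd79a were called lower. Their part in the results was not tested. Background shares were 5.67% lower and 1.85% higher. By adjusted p alone there were 3 members, with Gapdh added, against 8.44% of all genes. The median of the members was -0.36 and that of all genes -0.35. Pgam1 was at 169, 130 and 246 TPM in dormant WT cells and 391, 440 and 412 in growing WT cells, a difference of -1.23 (SE 0.246, limma adjusted p 0.0112). The brain-type aldolase gene Aldoc stood at 8.10, 6.18 and 4.06 TPM in growing WT cells but was listed at 0 in every dormant WT library (limma adjusted p 0.0217). Leaving out 1 library could end either call. Pgam1 was lost without growing WT library 2 (adjusted p 0.0517) and Aldoc without growing WT library 1 or 2. Without dormant WT library 1, 5 members were called, with Gpi1, Pfkl and Pfkp added, all lower in dormant WT. Without dormant WT library 2, 4 were called, with Slc16a1 added as higher in dormant WT (1.37, limma adjusted p 0.0218) and Ankrd37 as lower.

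Gapdh was at 658, 475 and 612 TPM in dormant WT cells and 1041, 1043 and 970 in growing WT cells (difference -0.82, limma adjusted p 0.00273). Pkm had the opposite sign, with groups that did not overlap, dormant WT at 1.56 times growing WT in mean TPM and a log2 difference of 0.63 (95% interval 0.14 to 1.12, limma adjusted p 0.108), which was not called. Eno1 differed by -0.91 (adjusted p 0.0964), Ldha by -0.64 (0.0840) and Tpi1 by -0.67 (0.0507), none of them past the threshold.

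**Figure D4:**
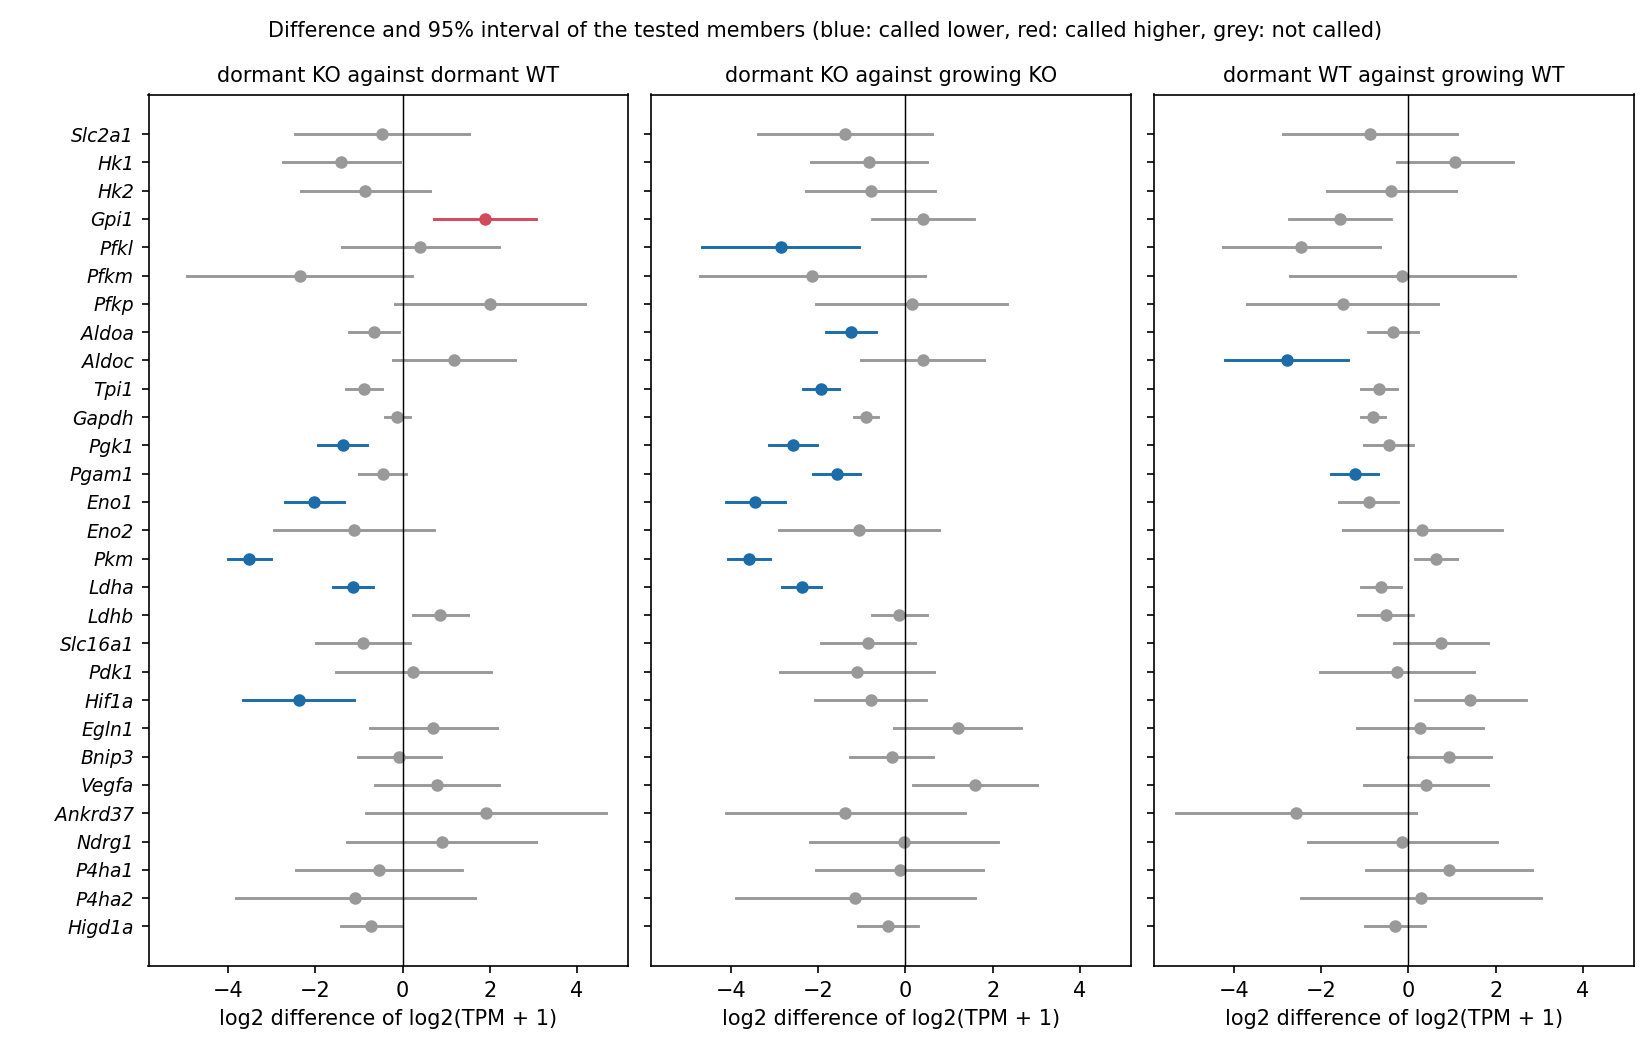
Log2 difference on the log2(TPM + 1) scale, with its 95% interval from limma, for the 29 tested members in 3 comparisons. Called members are 5 lower and 1 higher for dormant KO against dormant WT, 8 lower for dormant KO against growing KO and 2 lower for dormant WT against growing WT.

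Between hosts in growing cells, limma called 0 of the 29 members, while 5 had an unadjusted p under 0.05, namely Aldoc, Pkm, Pgk1, Ldha and Bnip3. At that cutoff 979 of the 13002 genes tested passed. Over all genes, 0.715% were called higher and 0.261% lower, and 1.05% passed the adjusted p alone. Pkm was at a difference of 0.71 (95% interval 0.22 to 1.19, limma adjusted p 0.291), Pgk1 at 0.74 (0.19 to 1.29, adjusted p 0.364) and Ldha at 0.61 (0.15 to 1.07, adjusted p 0.368), each with growing KO above growing WT in every library. Bnip3 differed by 1.18 (0.23 to 2.13, adjusted p 0.437), with overlapping groups. Aldoc was at 0, 4.16 and 0 TPM in growing KO cells, with a difference of -2.00 (limma adjusted p 0.307), and was called lower with array weights and without growing KO library 2. Of the markers of other cells, Sftpc, Sftpa1, Cyp2f2, Bpifa1, Col3a1, Dcn and Upk3b were called higher in growing KO, where club and ciliated markers summed to 1070 to 1095 TPM against 292 to 303 in growing WT, and their part in the differences was not tested.

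The interaction tests whether dormant and growing cells are set apart by the same amount in both hosts. By limma, 6 members were called: Tpi1, Pgk1, Eno1, Pkm and Ldha with a more negative difference in KO hosts, and Aldoc with a more positive one. Of all genes tested, 3.91% were called lower and 6.18% higher, and 10.4% passed the adjusted p alone, which 6 members did. The median of the members was -0.86 and that of all genes 0.16. For Pkm the interaction was -4.22 (SE 0.314, adjusted p 2.38e-05), made of a difference of -3.59 in KO hosts and 0.63 in WT hosts. For Eno1 it was -2.54 (SE 0.436, adjusted p 0.00400), for Pgk1 -2.11 (SE 0.356, adjusted p 0.00364), for Ldha -1.75 (SE 0.295, adjusted p 0.00367) and for Tpi1 -1.26 (SE 0.267, adjusted p 0.0112). The calls of Pkm, Eno1, Pgk1 and Ldha were kept under both scalings and with any library left out, while Tpi1 was at -0.75 (adjusted p 0.137) under median-ratio scaling. Aldoc, whose fitted value depends on the pseudocount because dormant WT is listed at 0, was at 3.18 (adjusted p 0.0469) and was lost in 10 of 12 fits without a library, with the replicate block (adjusted p 0.0805), with a pseudocount of 5, with no filter, under quantile normalization and with array weights (adjusted p 0.0604 to 0.161). Gapdh (-0.09, 95% interval -0.49 to 0.30) and Ldhb (0.38, -0.52 to 1.27) were not called. Hif1a, at -2.22, had an adjusted p of 0.121. The interaction compares batches as well as hosts.

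Of 92 other genes of these pathways, 64 were tested. In dormant cells between hosts 7 were higher and 10 lower, against 12.9% and 9.39% of all genes tested, with a median difference of 0.25 against 0.17. Among 7 tested genes of glycolysis and glucose transport, Bpgm and Eno3 were lower. Bpgm, which makes 2,3-bisphosphoglycerate, was at 221, 140 and 114 TPM in dormant WT cells and 16.5, 11.7 and 4.52 in dormant KO cells (difference -3.84, limma adjusted p 0.000113). Eno3, the muscle enolase, was at 133, 27.9 and 67.9 against 16.9, 12.8 and 0.44 TPM (difference -3.18, adjusted p 0.0162). Of 11 tested genes of pyruvate and lactate fate, Bsg, the chaperone of the lactate transporters, and Mpc1, a subunit of the mitochondrial pyruvate carrier, were higher, by 1.06 and 1.03 (limma adjusted p 0.00676 and 0.0160). Pdha1 and Pdhb, which encode the E1 subunits of pyruvate dehydrogenase, were lower, by limma differences of -1.26 and -1.32. In the pentose phosphate branch, G6pdx, its entry enzyme, and Pgd were lower among 8 tested (differences -1.99 and -1.75). The other 6 had positive differences, of which Taldo1, a transaldolase, passed the adjusted p (0.0121 by limma) at 0.88, under the minimum of 1, and the median of the 8 was 0.69. Of 7 tested glycogen genes Gys1, a glycogen synthase, was lower.

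Of 8 other tested genes of the HIF pathway, 1 was higher in dormant KO and 1 lower. Arnt, the partner subunit of the dimer, was at 20.4, 27.1 and 28.6 TPM in dormant WT cells and 1.25, 0.21 and 1.89 in dormant KO cells (difference -3.71, limma adjusted p 0.00104). Like Hif1a, it was highest in dormant WT, with 2.37, 9.93 and 2.21 TPM in growing WT cells, and it was called higher there in dormant than in growing cells (difference 2.41, limma adjusted p 0.0345). Epas1, which encodes HIF-2α and is well known from lung endothelium, was at 98.4, 69.6 and 104 TPM in dormant KO cells and 0.95, 14.8 and 0.01 in dormant WT cells (difference 4.84, limma adjusted p 0.00163). Of 23 other tested genes of the hypoxia response, 4 were higher and 2 lower. Selenbp1 (26.0 to 51.1 TPM in dormant KO cells, at most 0.04 in dormant WT cells) and Edn1 (3.02 to 16.3 TPM, listed at 0 in dormant WT cells) were among the higher ones, and Bhlhe40, a transcriptional repressor, was among the lower ones, at 15.3, 23.4 and 5.77 against 178, 156 and 135 TPM (difference -3.49, limma adjusted p 0.000123).

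In KO hosts, dormant against growing cells, 3 of the 64 other genes were higher and 10 lower, against 8.31% and 9.48% of all genes, with a median of -0.56 against -0.32. Bpgm (difference -2.97), Eno3 (-3.71) and Bhlhe40 (-2.78) were lower again, with limma adjusted p of 0.000872, 0.00878 and 0.000791. In WT hosts 1 was higher (Arnt) and 2 lower, Pdp1 and Pgls, against 1.85% and 5.67% of all genes, with a median of -0.40 against -0.35. Pdp1, a phosphatase that turns on pyruvate dehydrogenase, was at 0.10, 1.98 and 0 TPM in dormant WT cells and 12.9, 14.6 and 11.4 in growing WT cells (difference -3.22, limma adjusted p 0.00842). It was low in dormant KO as well, at 0, 1.92 and 0.93 TPM against 8.65, 16.3 and 13.4 in growing KO cells (difference -2.91, limma adjusted p 0.00536). In growing cells between hosts, limma called 0 of the 64, against 0.715% higher and 0.261% lower of all genes. An unadjusted p under 0.05 was found for 3 of the 64, against 979 of the 13002 genes tested. In the interaction 1 was higher, Selenbp1, and 5 were lower (against 6.18% and 3.91% of all genes), Bpgm, Arnt, Bhlhe40, Fam162a and Jmjd6.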

How the data were processed

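Reads were trimmed (Cutadapt), aligned to mm10 (STAR 2.5.2b) and turned into gene levels (RSEM) by the authors. The deposited values are TPM per gene (GENCODE M12 per the study's methods), divided by gene length and library total. The methods describe small sorted aliquots and Smart-seq2, the labels a TruSeq mRNA kit. Reads that fit several genes are divided among them by RSEM, and the use of strand is not given in the sources used here. Depth is unknown, so no counting interval was computed. A further 30 per-sample columns could not be matched to a sample here and were not used, among them columns named for dormant and growing cells of WT hosts in batch 2.

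TPM was transformed to log2(TPM + 1), genes with at least 1 TPM in at least 3 libraries were kept (13002), and limma 3.58.1 (R 4.3.3, eBayes with trend) was fitted to all 12 libraries with a mean per group, 8 residual degrees of freedom and 5 contrasts, two-sided, with Benjamini-Hochberg adjustment over all genes. Fold changes on this scale understate changes of low genes. The authors' DESeq2 fit was not repeated, since TPM are not counts. Host and batch are the same split, so batch was not a covariate.

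The members, the 6 lists of other pathway genes, the 12 marker lists (61 genes, 60 in the table) and the tests were chosen with earlier results of these data known. The rule for naming gave values per library for called members whose groups did not overlap and for 12 preset genes, and at most 3 called genes per direction of each other list. Isozyme and enzyme shares carry no test. Near-identical copies were sought with blastn among GENCODE M21 transcripts. Promoters are from RefSeq (GRCm38.p6), matched by symbol for 33 of 34 members. Scripts were tested on simulated data. As alternatives, the pseudocount was set to 0.1 and to 5, the filter was dropped or raised to 5 TPM, the values were rescaled by median ratios or quantiles, the fit was limited to the compared groups, given array weights or a replicate block, the size minimum was dropped, and each library was left out.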

Additional observations from a re-analysis of the deposited data

Results flagged for a closer look

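Members whose dormant against growing difference differed between KO and WT hosts by limma's interaction term were looked at again. The interaction, the log2 difference in KO hosts with that of WT hosts subtracted, was -4.217 for Pkm, -2.539 for Eno1, -2.115 for Pgk1, -1.745 for Ldha and -1.260 for Tpi1, and 3.180 for Aldoc. For Pkm the 2 differences had opposite signs, -3.59 in KO hosts and 0.63 in WT hosts. Eno1, Pgk1, Ldha and Tpi1 were negative in both. For Aldoc the difference was -2.79 in WT hosts, where dormant libraries are listed at 0, and 0.39 in KO hosts. The interaction draws on all 4 groups. Between hosts, Aldoc differed by -2.00 in growing cells and by 1.18 in dormant cells. In dormant cells Pkm, Eno1, Pgk1, Ldha and Tpi1 differed by -3.51, -2.03, -1.37, -1.14 and -0.89. In growing cells the same genes, in that order, differed by 0.71, 0.51, 0.74, 0.61 and 0.37. Alveolar and erythroid transcripts, given with the results, were highest in the dormant KO libraries, and their part was not tested. With groups of 3, no test for a single outlying library was run.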

How the results depend on the processing

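Directions of the members called did not reverse under any alternative run. The count of called members was 1 for growing KO against growing WT with array weights, against 0, and from 0 to 1 with a library left out. For dormant WT against growing WT it was 1 with no filter, with a minimum of 5 TPM and with array weights, against 2, and 0 to 5 with a library left out. For dormant KO against growing KO it was 5 under median-ratio scaling, against 8. The counts for the dormant groups (5 to 9 with a library left out, against 6), for dormant KO against growing KO (7 to 8) and for the interaction (5 to 7, against 6) stayed within 1.5 times. Same-numbered libraries did not deviate together (r from -0.014 to 0.021 over genes), nor did those of unlike number (-0.029 to 0.033). With r this small for every pair of libraries, the check cannot settle whether same-numbered libraries share a mouse, which the labels do not say. With the replicate block 6, 0, 2, 8 and 5 members were called in the order of the contrasts host in dormant cells, host in growing cells, state in WT hosts, state in KO hosts and interaction. Summing members with near-identical copies, chosen after the data were seen, gave 6, 0, 2, 9 and 6.

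Over all genes, the fit of the groups compared called 1680 for the dormant groups and array weights 1418, against 2898. For the growing groups these gave 308 and 516, against 127. For state in WT hosts no filter gave 637 and array weights 310, against 977, and for state in KO hosts array weights gave 3586, against 2313. With a library left out the counts were 66 to 78 for the growing groups, 447 to 1918 for state in WT hosts (the highest without dormant WT library 1) and 861 to 1937 for the interaction, against 1312 (the lowest without dormant KO library 1). Median-ratio scaling moved the split of higher and lower genes from 1677 and 1221 to 2289 and 804 in the dormant groups, from 1080 and 1233 to 1491 and 663 for state in KO hosts and from 803 and 509 to 1130 and 299 for the interaction. Quantile normalization moved it from 240 and 737 to 489 and 478 for state in WT hosts. The causes were not tested. The unknown depth limits every gene near 0, and the spread of dormant WT, where 4 members were at 0 in all 3 libraries, limits intervals there.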
